A study of Mus musculus with 2 samples.

Results

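The genes described here encode the chains of the collagen family. They were taken by name from the arrays, as every gene symbol made of Col, a type number, the letter a and a chain number. This rule found 44 genes, measured by 69 probes, among 27487 named genes and 39428 probes. Where a gene had several probes, the brightest over the 4 channels was used. The genes fall into 11 fibrillar collagens, 8 collagens of basement membranes, 9 FACIT collagens and 16 others. FACIT collagens are those that bind to the surface of fibrils and have an interrupted triple helix. The study looked for genes whose expression in the newborn ureter rests on SHH signaling. Ureters of wildtype NMRI mice were taken at postnatal day 0 and kept on transwell membranes for 18 h. They received either 10 µM cyclopamine, which blocks the SHH signal transducer SMO, or the solvent, given in the labels as DMF diluted 1 in 1000. Pools of several ureters were compared on 2 two-colour arrays. Replicate 1 set a female cyclopamine pool in the red channel against a female control pool in the green channel, and replicate 2 a male cyclopamine pool in green against a male control pool in red. The sex of the pool, the dye and the replicate number therefore cannot be told apart. All ratios are cyclopamine over control on the log2 scale, turned for the dye swap, unless red over green is named.

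Collagens are helical trimers whose chains carry glycine in each Gly-X-Y repeat, and most are secreted, while some stay anchored in the cell membrane. Fibrillar collagens assemble into the fibrils of connective tissue, type IV collagens into the meshwork of basement membranes, and type VI collagens into beaded microfilaments around cells. In the ureter, fibroblasts of the lamina propria and the adventitia are known producers of fibrillar collagen, while smooth muscle cells, endothelium and urothelium rest on type IV networks.

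Well above background were 64.8% to 70.0% of the spots, depending on array and channel. The 75th percentile of the control intensity was 3338 on replicate 1 and 628 on replicate 2, so that intensities are compared only within an array. Xist was bright only on replicate 1, and Ddx3y and Uty only on replicate 2, as the sex labels require. Within replicate 1, however, Xist went from 3176 in the control to 8765 with cyclopamine, a ratio of 1.46 between pools labelled female. The Y-linked gene Eif2s3y was bright on replicate 2. On replicate 1 its control signal was dim (18.9) but well above background in most spots, and its cyclopamine signal was not, with a ratio of -2.04. The cause of these differences was not tested. The SHH target Gli1 was lower with cyclopamine on both arrays, with ratios of -1.83 and -2.09 (limma, adjusted p = 1.76e-08), and Ptch1, which encodes the SHH receptor, likewise with -1.13 and -1.49. Spots of a probe differed little. Among the collagen genes the median SD over the spots of a probe was 0.040 on replicate 1 and 0.047 on replicate 2. Of the 44 genes, 40 were measured well enough to be tested (18380 of all genes), that is, 50% or more of their spots stood well above background on both arrays, either for the control or for the cyclopamine pools. The FACIT genes Col9a3, Col19a1 and Col22a1 and the growth plate collagen gene Col10a1 were not.

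The sequence of some probes shows the protein repeat itself, and these are given because they read the coding part of the transcript. Of the 69 collagen probes, 3 hold at least 5 consecutive glycine codons spaced by pairs of other codons in a reading frame without a stop (4.35%), against 12 of 39359 other probes (0.0305%). The capitals mark the glycine codons.
Col15a1: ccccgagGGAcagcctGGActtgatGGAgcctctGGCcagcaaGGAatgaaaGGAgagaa
Col16a1: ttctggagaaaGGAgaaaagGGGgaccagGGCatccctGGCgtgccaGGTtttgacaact
The Col15a1 probe lies at chr4:47283786-47283845 and the Col16a1 probe at chr4:129756457-129756516 (array annotation, build mm9, plus strand). Neither was the brightest of its gene. The Col15a1 probe had ratios of 0.87 on replicate 1 and 0.06 on replicate 2, where the brightest probe of the gene had 0.43 and -0.11. The Col16a1 probe had 0.25 and -0.34, where the brightest probe of the gene had 0.34 and -0.44. The third such probe, of Col25a1, was too dim to be tested.

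The bases before the start sites of Col1a2 and Col3a1, which had nearly the same ratios on both arrays, are shown for comparison. They end at the base before the annotated start (RefSeq, build GRCm38.p6, plus strand), and capitals mark the motifs, searched on both strands. CCAAT is the box bound by NF-Y. TATAAA is the box bound by TBP. The third motif, GGGCGG, is the box bound by SP1.
Col1a2: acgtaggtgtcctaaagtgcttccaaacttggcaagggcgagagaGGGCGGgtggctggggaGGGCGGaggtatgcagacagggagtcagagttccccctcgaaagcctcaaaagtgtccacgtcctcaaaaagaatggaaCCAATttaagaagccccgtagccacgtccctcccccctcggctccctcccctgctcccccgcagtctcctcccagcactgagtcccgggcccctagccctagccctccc
Col3a1: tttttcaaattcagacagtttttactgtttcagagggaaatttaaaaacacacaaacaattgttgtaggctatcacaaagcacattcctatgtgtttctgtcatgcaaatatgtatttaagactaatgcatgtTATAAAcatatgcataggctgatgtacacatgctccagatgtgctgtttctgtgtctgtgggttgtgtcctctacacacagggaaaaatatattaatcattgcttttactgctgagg
The Col1a2 window is chr6:4505368-4505617 and the Col3a1 window chr1:45311288-45311537. Neither window holds a motif marked in the other. CCAAT stood in 13 of 38 windows of 35 collagen genes (34.2%) and in 33.8% of all 32851 windows of 250 bases, and TATAAA in 5 (13.2%) and 12.4%. GGGCGG stood in 22 of the 38 (57.9%) and in 32.7% of all windows. The 9 letters TGGGTGGTC, the core bound by GLI factors, stood in none of the 38 and in 0.225% of all windows. A match is a run of letters and not a site, and no match says only that these letters are not in the window.

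No collagen gene was called as changed by cyclopamine with its brightest probe, but the family did not lie where other genes lay. On replicate 1 the cyclopamine channel was the brighter for 35 of the 40 tested genes, and on replicate 2 it was the dimmer for 28 of the 40. The 40 genes had a median ratio of 0.44 on replicate 1 and -0.31 on replicate 2, where all tested genes had 0.005 and -0.001. The pattern of higher on replicate 1 and lower on replicate 2 was found for 24 of the 40 genes, against 21.5% of all tested genes. The mirror pattern was found only for Col11a2, against 20.6% of all tested genes. Higher on both arrays were 11 of the 40 (29.1% of all tested genes) and lower on both 4 (28.8%), namely Col9a1, Col9a2, Col11a1 and Col27a1. At least 1.5-fold higher on replicate 1 were 12 of the 40, against 8.72% of all tested genes, and at least 1.5-fold lower on replicate 2 were 7, against 3.12%. The mean of both arrays had a median of 0.12, and of 0.0056 once a trend along the genomic span of the gene had been removed. In the test of the mean ratio by limma, none of the 40 was called lower (0.892% of all tested genes) or higher (0.446%) at an adjusted p of 0.05, and 5 had an unadjusted p under 0.05 (9.15% of all tested genes). In limma fits under other settings at most 1 collagen gene was called. None of the 27 collagen genes whose control intensity exceeded 100 on each array was at least 1.5-fold lower on both (0.651% of the 13066 genes over this limit) or higher on both (0.214%), which are the limits that the study applied. With the samples pooled by sex and only 2 arrays, the variance of a gene rests on 1 residual degree of freedom and a prior pooled over genes. This prior counted as 51.93 degrees of freedom, so the p-values of limma rest mostly on the pooled spread. They reflect little of a gene's own difference between the arrays. In the red over green fit the variance was that of the prior alone. The small number of arrays limits precision.

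**Figure D1:**
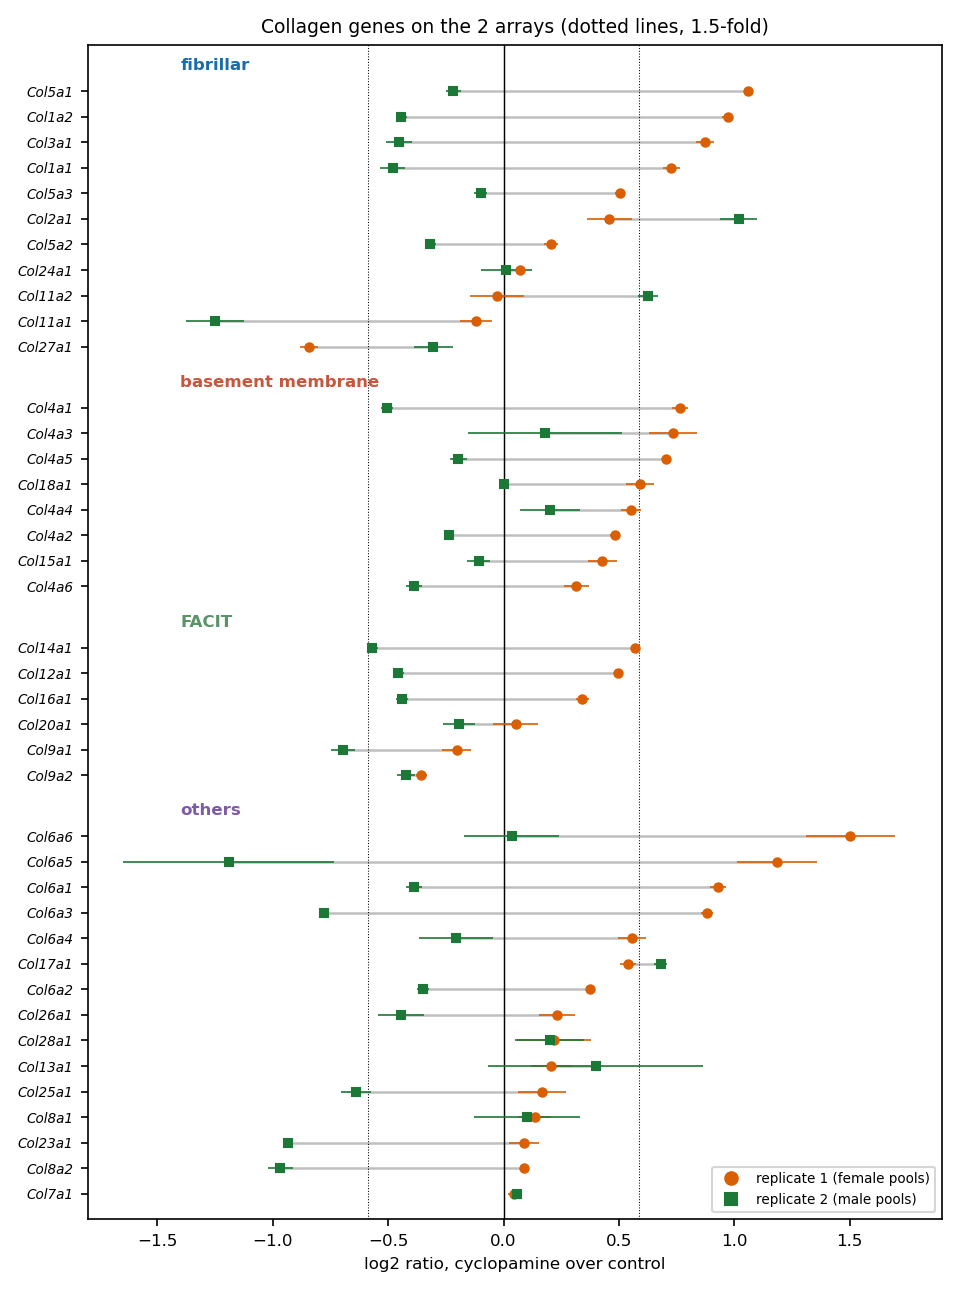
Log2 ratio of cyclopamine over control (x axis) of the 40 tested collagen genes (rows, by group), with circles for replicate 1 and squares for replicate 2. Bars are the SD over the spots of the probe on that array, and dotted lines mark 1.5-fold; most circles lie right of 0 and most squares left of it.

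Among the fibrillar collagens, the genes of the abundant fibril chains had high ratios on replicate 1 and low ratios on replicate 2. Col1a2, a chain of type I collagen, gave an intensity of 54603 for the control pool and 107014 for the cyclopamine pool of replicate 1, and of 37601 and 27646 on replicate 2. Its ratios were thus 0.97 and -0.44, with a mean of 0.26 ± 1.00 (SD, n = 2 arrays; limma, adjusted p = 0.77). The arrays gave opposite directions for this gene. The partner chain Col1a1 went from 49715 to 82315 on replicate 1 and from 28755 to 20611 on replicate 2, with ratios of 0.73 and -0.48. Col3a1, whose product forms mixed fibrils with type I collagen, went from 63421 to 116268 on replicate 1 and from 38380 to 28046 on replicate 2, with ratios of 0.87 and -0.45. The ratios of these 3 genes therefore spanned 0.24 on replicate 1 and 0.037 on replicate 2.

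The chains of type V collagen, which set the diameter of type I fibrils, were less alike. Col5a1 gave intensities of 18669 for the control and 38864 for the cyclopamine pool of replicate 1, and of 6528 and 5618 on replicate 2. Its ratios of 1.06 and -0.22 include the highest of the fibrillar group on replicate 1, with a mean of 0.42 ± 0.90 (SD, n = 2 arrays; limma, adjusted p = 0.62). Its partner Col5a2 had 6512 and 7513 on replicate 1 and 1786 and 1434 on replicate 2, with ratios of 0.21 and -0.32. Col5a3 had ratios of 0.51 and -0.10. All 3 chains were higher on replicate 1 and lower on replicate 2, but their ratios on replicate 1 spanned 0.85.

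The remaining fibrillar genes were mostly dim here. Types II and XI, encoded by some of them, are best known from cartilage. Col11a1, named because its mean was the lowest of the tested family, gave intensities of 192 for the control and 177 for the cyclopamine pool on replicate 1, and of 69.1 and 29.1 on replicate 2. Its ratios were -0.12 and -1.25, with a mean of -0.68 ± 0.80 (SD, n = 2 arrays; limma, adjusted p = 0.20). It was called only once a trend along genomic span had been removed (mean -0.80, limma, adjusted p = 0.030). Its partner Col11a2 had -0.03 and 0.63, and the chains of type XI collagen therefore disagreed by 1.88 on replicate 2. The cartilage collagen gene Col2a1 had 0.46 and 1.02 at control intensities of 62.2 and 10.4. Col27a1 had -0.84 and -0.30 and Col24a1 0.07 and 0.01. Col2a1, Col11a2, Col24a1 and Col27a1 were chosen after their values were seen. Of the cartilage markers, Acan, Matn1 and Lect1 were not well above background, while Sox9 had ratios of -0.84 and -0.48 and Hapln1 of 0.06 and -0.74.

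All 8 collagen genes of basement membranes had a cyclopamine channel brighter than the control on replicate 1. The median of the group was 0.57 on replicate 1 and -0.15 on replicate 2. Col4a1 and Col4a2 encode the chains of the ubiquitous type IV network and lie side by side on chromosome 8. Col4a1 gave intensities of 39484 for the control and 67105 for the cyclopamine pool of replicate 1, and of 15710 and 11073 on replicate 2. Col4a2 had 18018 and 25162 on replicate 1, and 5437 and 4612 on replicate 2. The ratios were 0.77 and -0.50 for Col4a1 and 0.48 and -0.24 for Col4a2. Both genes changed direction between the arrays, and their means were 0.13 and 0.12, with limma giving an adjusted p of 0.90 for Col4a1. With the trend along genomic span removed the means were 0.0093 and 0.0019.

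The chains of specialised type IV networks had no common direction on replicate 2. Col4a5 had ratios of 0.70 and -0.20 and Col4a6 0.31 and -0.39. Col4a3 and Col4a4, which share the glomerular network with Col4a5 in the kidney, had 0.73 and 0.18 and 0.55 and 0.20, at control intensities of 68.7 and 119 on replicate 1. Of the kidney markers, Umod, Slc12a1, Nphs1 and Slc34a1 were not well above background, and Lrp2 and Aqp2 were. The multiplexins, collagens with several interruptions that sit at the outer face of basement membranes, are Col15a1 and Col18a1. Col15a1 had intensities of 866 and 1166 on replicate 1 and of 394 and 365 on replicate 2, with ratios of 0.43 and -0.11. Col18a1, the source of endostatin, had 19205 and 28954 on replicate 1, and 5271 in each channel of replicate 2. Its ratio was 0.59 on replicate 1, and its value on replicate 2 is counted as higher although it was 6.9e-05.

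Among collagen genes over the intensity limit, Col6a3 of type VI collagen had the largest difference between the arrays. Col6a3, the large chain of the type VI microfilament, gave an intensity of 29556 for the control pool and 54495 for the cyclopamine pool of replicate 1, and of 11445 and 6682 on replicate 2. The ratios were 0.88 and -0.78, so that the difference from the control was 84.4% on replicate 1 and -41.6% on replicate 2, with a mean of 0.05 ± 1.17 (SD, n = 2 arrays; limma, adjusted p = 0.96). Its probe lies at chr1:92663663-92663722 (build mm9, minus strand), and the annotation gives no exon or UTR for it. Col6a3 was the only collagen gene with a control intensity over 100 that changed at least 1.5-fold up on replicate 1 and down on replicate 2, a pattern of 0.0689% of the genes over this limit. None had the reverse pattern (0.0612%).

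Its partners were also higher on replicate 1 and lower on replicate 2. Col6a1 had 44364 and 84506 on replicate 1 and 16741 and 12794 on replicate 2, with ratios of 0.93 and -0.39. Col6a2 had 3853 and 4992 on replicate 1, and 1431 and 1123 on replicate 2, with ratios of 0.37 and -0.35. Col6a1 and Col6a2 are neighbours on chromosome 10, and the 3 chains spanned 0.56 on replicate 1 and 0.43 on replicate 2.

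The genes of the alternative long chains, Col6a4, Col6a5 and Col6a6, lie in a row on chromosome 9 and were dim. Col6a6, named because its mean was the highest of the tested family, went from 101 to 287 on replicate 1, whereas it had 29.1 and 29.8 on replicate 2. Its ratios were 1.503 and 0.04, with a mean of 0.77 ± 1.04 (SD, n = 2 arrays; limma, adjusted p = 0.14). A second, dimmer probe of Col6a6 had ratios of 1.49 and 0.68 and was the only one of 56 tested collagen probes called by limma (mean 1.08, adjusted p = 0.0052). The probes of this gene therefore agree on replicate 1 and differ by 0.64 on replicate 2. Col6a5 had ratios of 1.19 and -1.19 at intensities of 13.2 and 30.0 on replicate 1 and of 6.11 and 2.67 on replicate 2, where the cyclopamine channel was not well above background. Col6a4 had ratios of 0.56 and -0.21.

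The FACIT collagens were the group with the lowest median on replicate 2, -0.45, at 0.20 on replicate 1. Col12a1 and Col14a1, which decorate type I fibrils, were opposed on the arrays by nearly equal amounts. Col14a1 had intensities of 10694 and 15889 on replicate 1, and of 3776 and 2547 on replicate 2, with ratios of 0.57 and -0.57. A second Col14a1 probe had 0.55 and -0.46. Col12a1 had 4268 and 6013 on replicate 1, and 1223 and 892 on replicate 2, with ratios of 0.49 and -0.45. Over both arrays the mean was 0.0016 for Col14a1 and 0.020 for Col12a1. Col16a1 had ratios of 0.34 and -0.44 and Col20a1 0.05 and -0.19. Col9a1 and Col9a2, the type IX collagen genes of cartilage fibrils, were lower on both arrays, with -0.20 and -0.70 for Col9a1 and -0.36 and -0.42 for Col9a2. These ratios missed the threshold of limma. Col9a1 and Col9a2 were bright, with control intensities of 5850 and 5828 on replicate 1, and were named after their values were seen.

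**Figure D2:**
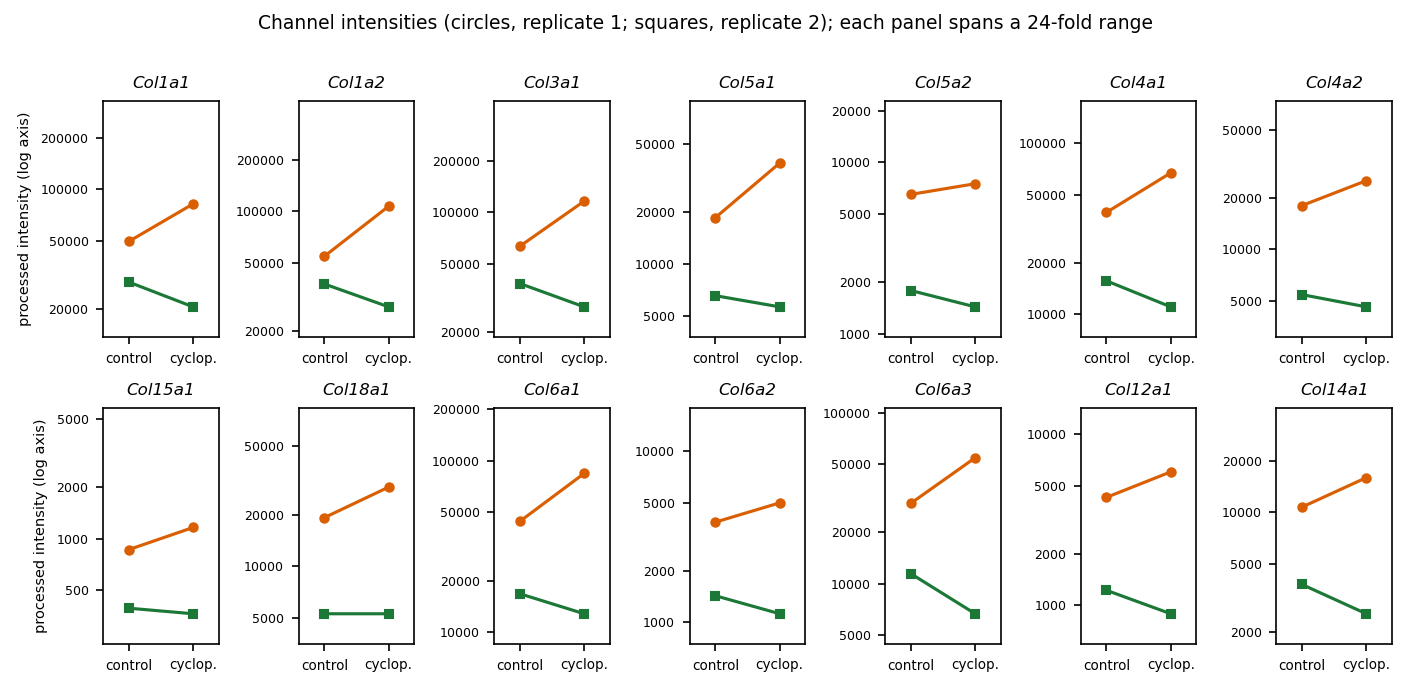
Processed intensity (log axis, arbitrary units) in the control and the cyclopamine channel for 14 collagen genes, with circles for replicate 1 and squares for replicate 2, joined within an array. The lines of replicate 1 slope up in all 14 panels, and those of replicate 2 slope down in all but Col18a1, which is level; heights are not comparable between panels.

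The rest of the family holds transmembrane, anchoring and short chain collagens. Col17a1, a transmembrane collagen of the hemidesmosomes of basal epithelial cells, went from 5309 to 7717 on replicate 1 and from 1277 to 2046 on replicate 2. Its ratios of 0.54 and 0.68 had the same direction and a mean of 0.61 ± 0.10 (SD, n = 2 arrays), which missed the threshold of limma with an adjusted p of 0.25. Of the 11 genes higher on both arrays, Col6a6, Col2a1 and Col17a1 had the highest means. The 12 urothelial markers had medians of 0.15 and 0.18, and 9 of them were also higher on both arrays (29.1% of all tested genes). Of these markers, Trp63 of basal cells had the highest mean, with ratios of 0.68 and 0.25, while Krt5 had 0.16 and 0.08. The anchoring fibril gene Col7a1 had 0.05 and 0.06, and Col8a1 0.14 and 0.10. Col8a2, the other chain of type VIII collagen, and the transmembrane collagen gene Col23a1 had ratios near 0 on replicate 1 (0.09 for each) and of -0.97 and -0.94 on replicate 2, which are differences of -48.9% and -47.7%. All 3 probes of Col23a1 had this pattern, from 0.09 to 0.28 on replicate 1 and from -0.94 to -0.61 on replicate 2. A second, dimmer probe of Col8a2 had 0.44 and -0.69 and so was not near 0 on replicate 1. Col25a1 and Col26a1 had 0.17 and -0.64 and 0.23 and -0.44, while Col13a1 and Col28a1 were higher on both arrays by at most 0.40. Col7a1, Col8a1, Col8a2, Col13a1, Col17a1, Col23a1, Col25a1, Col26a1 and Col28a1 were named after their values were seen.

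Read by dye instead of by treatment, 34 of the 40 collagen genes had a mean ratio of red over green above 0, against 50.5% of all tested genes. The mean log2 ratio of red over green had a median of 0.36 over the 40 collagen genes, against 0.003 over all tested genes, and was close in the groups, with 0.30 for fibrillar, 0.32 for basement membrane, 0.32 for FACIT and 0.38 for other collagens. Col6a3 had 0.83, Col1a2 0.71, Col3a1 0.66, Col6a1 0.66, Col5a1 0.64, Col4a1 0.63 and Col1a1 0.60. In the red over green fit of limma no collagen gene was called higher in red (0.00544% of all tested genes) or in green (0.0272%), and 9 of the 40 had an unadjusted p under 0.05 (1.98% of all tested genes). The lowest adjusted p was 0.15, for the dim gene Col6a5. A red excess on both arrays and a response of opposite direction in female and male pools give the same numbers in this design. They cannot be told apart from each other or from other differences between the 2 replicates, each of which is a single pair of pools.

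**Figure D3:**
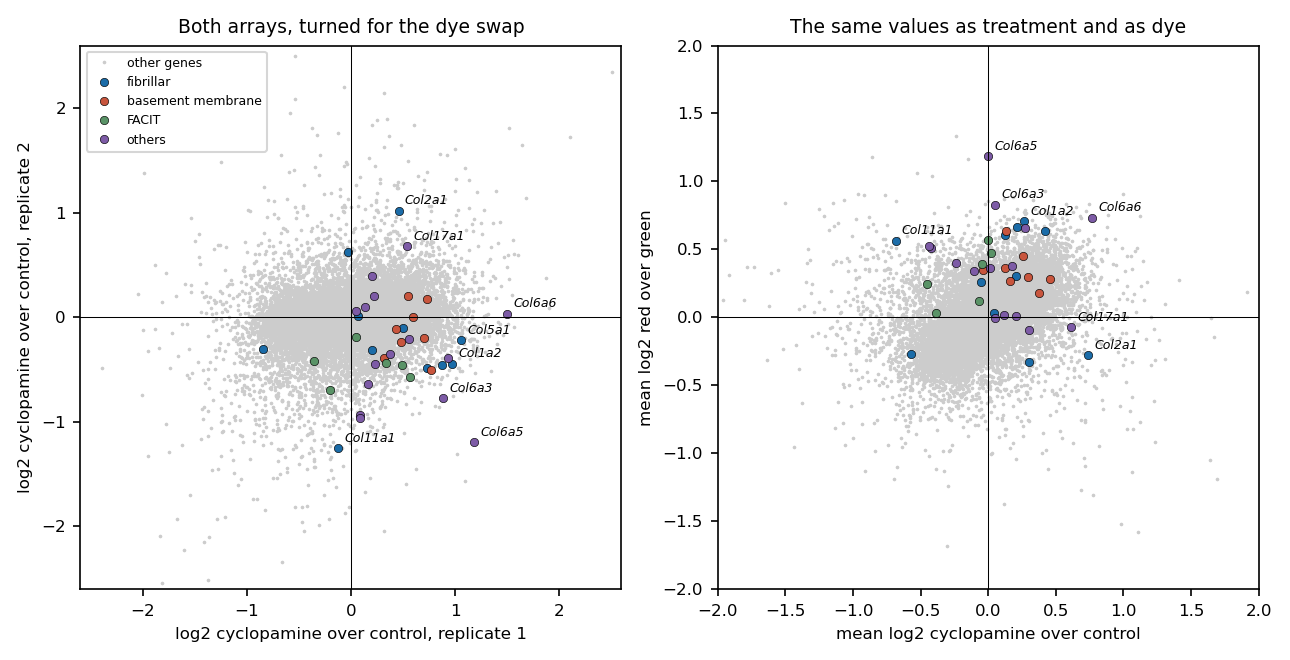
Left, log2 ratio of cyclopamine over control on replicate 1 (x axis) against replicate 2 (y axis) for the tested genes, with collagen genes coloured by group and other genes in grey. Right, the mean of these ratios (x axis) against the mean log2 ratio of red over green (y axis); 24 of 40 collagen genes lie in the lower right quadrant on the left, and their median on the right is 0.12 along x and 0.36 along y.

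Bright probes and long genes were looked at because the abundant collagens are bright and collagen genes are long. Among the brightest 5% of the tested genes were 6 collagen genes (Col1a1, Col1a2, Col3a1, Col4a1, Col6a1 and Col6a3), and all 6 were higher on replicate 1 and lower on replicate 2, with medians of 0.88 and -0.47. The median of all 919 genes in this range was -0.02 on replicate 1 and 0.01 on replicate 2, and 22.3% of them had the pattern. The other 34 collagen genes had medians of 0.33 and -0.21. The genomic span of the gene moved with the ratio on replicate 1. The median of all 2067 tested genes with a span over 100 kb (RefSeq, GRCm38.p6) was 0.31 on replicate 1 and -0.04 on replicate 2, and 42.4% of them had the pattern. The 24 collagen genes with such a span had 0.46 and -0.23. The 16 collagen genes with a shorter span had 0.42 and -0.41, where all 13943 shorter genes had -0.004 and 0.0003. After removal of the trend along span from each array, a step chosen after seeing the data, the collagen median on replicate 1 was 0.24 and on replicate 2 -0.30, that of red over green was 0.22, and 19 of the 40 genes had the pattern. What part span has in the ratios was not tested.

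**Figure D4:**
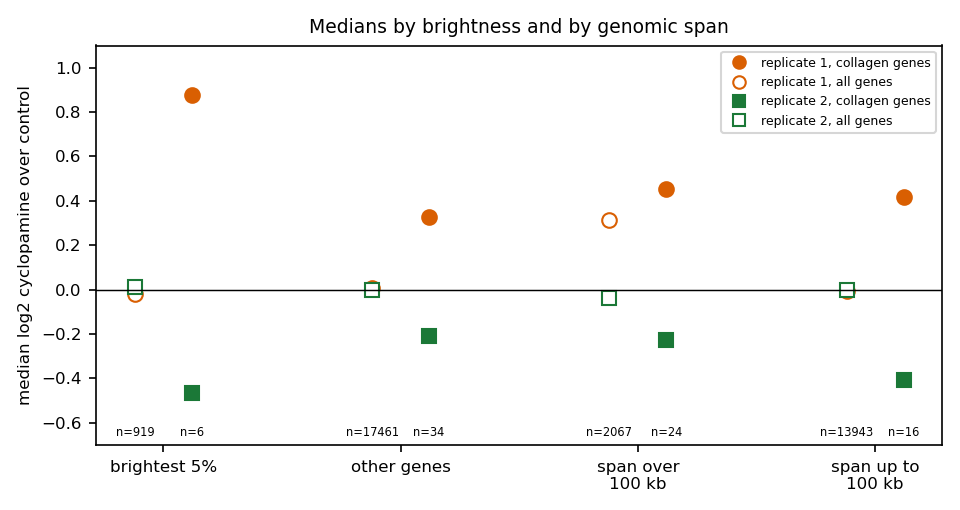
Median log2 ratio of cyclopamine over control (y axis) of collagen genes (filled) and all tested genes (open) on replicate 1 (circles) and replicate 2 (squares), in subsets by brightness over the 4 channels and by genomic span, with the number of genes under each symbol. The open symbols leave 0 only for replicate 1 in genes with a span over 100 kb (0.31).

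Agreement between probes could be read only for the 12 genes with more than 1 tested probe. Of these, 9 had the same direction with all their probes on replicate 1 and 10 on replicate 2. The exceptions were Col16a1, Col20a1 and Col25a1 on replicate 1, and Col15a1 and Col18a1 on replicate 2. The distance between the lowest and the highest probe had a median of 0.17 and 0.12. Col25a1 was the least settled, with probes from -0.46 to 0.41 on replicate 1. Over all 40 genes the size of the difference between the arrays had a median of 0.71, against 0.30 over all tested genes. Among 7 neighbouring pairs of tested collagen genes on the chromosomes, the partners had the same direction in all 7 on replicate 1 and in 6 on replicate 2, the exception being Col6a6 and Col6a5. Since 35 of the 40 collagen genes were higher on replicate 1, most pairs of members share a direction there, neighbours or not. On replicate 2, 28 of the 40 were lower. No share was taken for pairs that are not neighbours. The spread between probes and spots is technical and holds no spread between animals.

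Proteins that modify, secrete and cross-link collagen chains were read as a separate list of 31 genes, of which 30 were tested. Their medians were 0.24 on replicate 1 and -0.13 on replicate 2, where all tested genes had 0.005 and -0.001. Higher on the first and lower on the second array were 13 of the 30, against 21.5% of all tested genes. Lox, which encodes the lysyl oxidase that starts the cross-linking of fibrils, rose with cyclopamine. Its intensity went from 5121 to 13058 on replicate 1 and from 1407 to 2240 on replicate 2, with ratios of 1.35 and 0.67 and a mean of 1.01 ± 0.48 (SD, n = 2 arrays; limma, adjusted p = 0.0097). Both arrays gave the same direction, and Lox was also the only gene of the list past the limits of the study. Of all genes over the intensity limit, 0.214% were past them as higher and 0.651% as lower. It missed the threshold of limma after normexp with an offset of 50 (adjusted p = 0.056), in the series table (0.51) and with the channels as separate samples (0.99), where its mean stayed between 1.00 and 1.01. The lowest mean of the list was that of P4ha1, a catalytic subunit of the prolyl hydroxylase, with -0.44 and -0.43 (mean -0.43, limma, adjusted p = 0.57). Averaged over all its tested probes the mean of P4ha1 was -0.12. The other 28 tested genes had means between those of P4ha1 and Lox and none was called. Of all tested genes, limma called 0.892% lower and 0.446% higher.

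Of 10 genes for collagen receptors, 9 were tested. By limma none of these was called, against 0.892% of all tested genes called lower and 0.446% called higher. An unadjusted p under 0.05 was found for 1 of them, against 9.15% of all tested genes. Their medians were 0.41 on replicate 1 and 0.07 on replicate 2. Itga11, an integrin chain of fibroblasts that binds fibrillar collagen, had the highest mean. It went from 546 to 1155 on replicate 1 and from 116 to 145 on replicate 2, with ratios of 1.08 and 0.32 and a mean of 0.70 ± 0.54 (SD, n = 2 arrays; limma, adjusted p = 0.16). Mrc2, an endocytic receptor for collagen, had the lowest mean, with ratios of 0.24 and -0.19. Higher on both arrays were 6 of the 9 genes (29.1% of all tested genes). The other 3, Itga1, Lair1 and Mrc2, were higher on replicate 1 and lower on replicate 2 (21.5% of all tested genes).

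**Figure D5:**
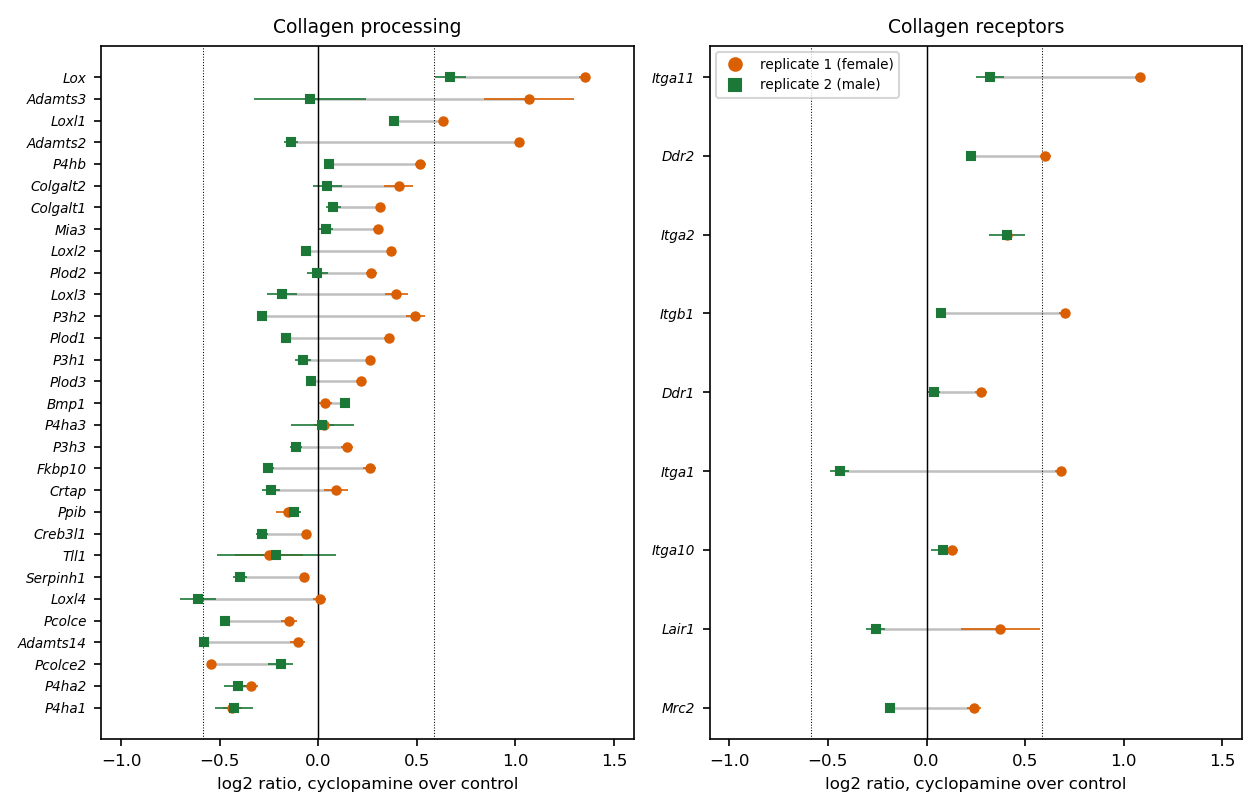
Log2 ratio of cyclopamine over control (x axis) of 30 genes of collagen processing (left) and 9 collagen receptor genes (right), sorted by mean, with circles for replicate 1, squares for replicate 2, bars for the SD over spots and dotted lines at 1.5-fold. Only Lox has both symbols beyond 1.5-fold on the same side.

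In whole explants a smaller share of a cell type and less RNA per cell cannot be told apart, and markers of the cells that make collagen are given beside the family. The 6 fibroblast markers had medians of 0.27 and -0.16, but did not move as a group. Thy1 (-0.83 and -0.79) and Aldh1a2 (-0.62 and -0.65) were lower on both arrays, Pdgfra (1.27 and 0.01) and Dpt (0.13 and 0.12) higher on both, and the matrix genes Dcn (0.42 and -0.09) and Lum (0.44 and -0.23) higher on the first and lower on the second. The 5 endothelial markers had medians of 0.65 and -0.17. Of them 3, Pecam1, Cdh5 and Kdr, were higher on replicate 1 and lower on replicate 2 (21.5% of all tested genes). The 7 smooth muscle markers had -0.06 and -0.40, and 5 were lower on both arrays (28.8% of all tested genes). Of the 7, only Actg2 was called lower by limma, with ratios of -0.71 and -1.09 (adjusted p = 0.025). It was also past the limits of the study. The 5 leukocyte markers had 0.21 and -0.08, and the 4 glial markers -0.66 and -0.14. The part of these cells in the collagen values was not tested.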

How the data were processed

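Spot intensity values in the deposited scanner files were made by the authors with Agilent Feature Extraction (10.7.3.1 per the labels, 12.2.0.7 per the file headers), with the background subtracted and the dyes balanced. The log10 ratio of red over green in the same deposited files served only as a check of direction. The deposited series table holds a score per probe, which its values show to be a signed fold change rounded by the authors. The label of the treated channel names IWP-2, but titles, treatments and protocol name cyclopamine, which was followed. For the solvent the labels name DMF and the methods of the paper ethanol, and the labels were followed. The arrays shared a slide and a scan.

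Outlier spots were left out (2.89% on replicate 1, 3.15% on replicate 2), and the 3 or 4 remaining spots of each collagen probe used were averaged as log2 values. Tested were probes with 50% or more of their spots flagged as above background in the same pool type on both arrays. limma 3.58.1 in R 4.3.3 (lmFit, eBayes) tested 25975 probes for the ratio turned by dye and, in a second fit, for red over green, with Benjamini-Hochberg adjustment over all probes and a limit of 0.05. In a test on simulated ratios over these probes, the turned fit called 80% of probes changed by a log2 of 1 and 100% of those changed by 2, and the red over green fit 90% and 100%, with 10 and 13 false calls. The simulated noise was independent and normal, with the same variance for every probe (0.104, the prior of the turned fit). It held no shift by dye, so these shares do not give the power for the collagen genes. The limits of the study, a control intensity over 100 and 1.5-fold, carry no p-value. Genes named were 14 fixed collagen genes, any called or past these limits in either direction, the highest and lowest mean of each list, and genes of small groups. All 44 symbols matched RefSeq. Each sex had a single array, so no p-value covers the spread between animals of a sex. Members and lists were chosen with earlier results of these data known. Alternatives were normexp with loess, the series table, no filter on dim probes, outlier spots kept, the mean of a gene's probes, another choice of the brightest probe, trends along GC content and genomic span removed, an intensity trend in eBayes, channels as separate samples, other limits, and each array left out.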

Additional observations from a re-analysis of the deposited data

Results flagged for a closer look

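The ratios of the female array (replicate 1) and the male array (replicate 2) had opposite directions for the family and for most named members. With a single array for each sex, the difference between the sexes was not tested, and dye, sex and replicate number cannot be told apart. The median ratio on replicate 1 exceeded that on replicate 2 by 0.754 over the tested collagen genes, by 0.762 for fibrillar, 0.724 for basement membrane, 0.643 for FACIT and 0.581 for other collagens. The difference between the arrays was 1.66 for Col6a3, 1.41 for Col1a2, 1.33 for Col3a1, 1.32 for Col6a1, 1.27 for Col5a1, 1.27 for Col4a1, 1.21 for Col1a1 and 1.14 for Col14a1. It was 0.949 for Col12a1, 0.723 for Col6a2, 0.719 for Col4a2, 0.537 for Col15a1, 0.523 for Col5a2 and 0.426 for the collagen receptor Mrc2.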

How the results depend on the processing

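The collagen median on replicate 1 ranged from 0.24 (trend along span removed) to 0.47 (mean of all probes of a gene) and on replicate 2 from -0.31 to -0.23 (no filter on dim probes), and 19 to 26 of the tested genes were higher on the first and lower on the second array. Without replicate 1 the median of the turned ratios was -0.31 and without replicate 2 0.44, while red over green was 0.31 and 0.44. The red over green median of 0.36 fell to 0.22 with the trend along span removed. Under the limits of the study applied to the remaining array alone, with a control intensity over 100, 1 to 10 collagen genes were at least 1.5-fold higher and 1 to 4 lower. Opposite changes of 1.5-fold were counted for 2 genes after normexp with loess at either offset (Col3a1 was added, with 0.97 and -0.59 at offset 50) and for 0 at a fold limit of 2. limma called 1 gene higher with the mean of all probes (Col6a6, 0.93, adjusted p = 0.0074) and 1 lower with the trend along span removed (Col11a1, -0.80, adjusted p = 0.030), an alternative chosen after seeing the data. Red over green called 1 gene higher in red with the trend along GC content removed (Col6a5) and 1 with an intensity trend in eBayes (Col1a2, adjusted p = 0.040). With no replicate block, that is, with the 4 channels as separate samples, limma called 0 collagen genes, as within arrays.

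Of 20 named genes, 5 with a mean of at most 0.05 changed sign, none of them called. With the trend along span removed, the means were -0.018 for Col6a2, -0.055 for Col6a3, -0.10 for Col12a1, -0.11 for Col14a1 and -0.065 for Mrc2, with that along GC content removed -0.020 for Col12a1 and -0.039 for Col14a1, and over all probes -0.029 for Col6a2 and -0.16 for Mrc2. Among named genes with a mean of at least 0.1, removing the trend along span moved 4 by over 1.5 times, to 0.0093 for Col4a1, 0.0019 for Col4a2, 0.040 for Col15a1 and 0.18 for Col18a1, and the mean of all probes moved Col15a1 to 0.27 and P4ha1 to -0.12. The cause was not tested. Removal of a trend along protein length was not run, since no protein table was used here. Signal near background limits what can be said of Col6a5.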
